A study of Mus musculus with 13 samples.

Results

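A set of 7 transcription factor genes that the study named in its regulon modules was followed across the cell classes of the deposited mouse lung single-cell data. They were Xbp1, Pparg, Bhlhe41, Usf2, Tead1, Irf8 and Runx3, which make up 7 of the 31053 genes in the table and were found by symbol. The labels list 13 samples, all of lung: 1 each of an asthma model, a control, a PPE-emphysema model and a PPE-recovery model, and 3 each of acute injury, Con and emphysema. PPE stands for elastase of porcine pancreas, which breaks down elastic fibers of the lung. Per the paper, single cells came from 1 mouse each of the control and of the asthma, emphysema and recovery models. The paper describes no single-cell samples of acute injury and no single-cell groups of 3 mice. It states that bulk RNA sequencing of mice was deposited together with the single-cell data. It also compares lung transcriptomes of control, acute injury and emphysema mice outside its single-cell part. Whether the labelled groups of 3 are those bulk samples could not be settled here. All mice were C57BL/6, and the asthma model was made with ovalbumin. The single-cell values are counts of unique molecular identifiers (UMIs, each marking 1 captured RNA molecule) in 1 matrix of 37344 barcodes, which are numbered by library from 1 to 7. No source used here ties a library to a group, so the matrix was treated as 1 sample, nothing was compared between disease groups, and no test across samples was possible. A difference between libraries therefore cannot be told apart from a difference between groups or mice. Of the barcodes, 33618 had at most 10% mitochondrial UMIs and were kept.

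A regulon is a transcription factor with the set of genes that it is inferred to control. XBP1 drives the unfolded protein response and the growth of the secretory pathway, and is known for its role in plasma cells and eosinophil precursors. PPARG is a fatty acid-activated nuclear receptor that binds DNA with RXR and shapes alveolar macrophages. BHLHE41 is a basic helix-loop-helix repressor of the clock system that also acts in alveolar macrophages and B-1 cells. USF2 is a broadly used activator of the same superfamily. Both bind the palindrome CACGTG, the E-box, which is also read by the lysosomal regulators TFEB and MITF. TEAD1 is the DNA-binding partner of YAP1 and WWTR1 in the Hippo pathway of epithelium and mesenchyme. IRF8 sets dendritic cell and monocyte fate and acts with PU.1, and RUNX3 acts with CBFB in cytotoxic lymphocytes and dendritic cells.

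Promoter sequences of Bhlhe41 and Runx3 are shown because these genes differed by at least 2-fold, in opposite directions, between the macrophage classes described further on, and because their windows held a searched motif. RefSeq promoter windows of GRCm38.p6, from 250 bases before to 50 bases after a start, matched 5 of the 7 members, all but Usf2 and Tead1. They were searched on both strands for the letters CACGTG (E-box), TGTGGT (RUNX), GGAATG (TEAD), TGACGTGG (XBP1), the ETS-IRF composite element and the direct repeat read by PPARG with RXR. CACGTG and TGACGTGG share the letters ACGTG. The Bhlhe41 window held 1 CACGTG, which 7.15% of all 32851 promoter windows hold. Of the 2 Runx3 windows, 1 held TGTGGT 2 times, seen below on the other strand as ACCACA, and 16.8% of all windows hold it. No window of Xbp1, Pparg or Irf8 held any of the motifs, which 14.7% (GGAATG), 2.72% (ETS-IRF), 0.676% (TGACGTGG) and 0.0396% (direct repeat) of all windows hold. A match is a description of letters and not a site of binding. In the stretches before the GENCODE start of each gene, capitals mark the motif.
Bhlhe41, chr6:145865559-145865670, minus strand: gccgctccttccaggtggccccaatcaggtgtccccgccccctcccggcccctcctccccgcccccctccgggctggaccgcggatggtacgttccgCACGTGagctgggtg
Runx3, chr4:135120395-135120644, plus strand: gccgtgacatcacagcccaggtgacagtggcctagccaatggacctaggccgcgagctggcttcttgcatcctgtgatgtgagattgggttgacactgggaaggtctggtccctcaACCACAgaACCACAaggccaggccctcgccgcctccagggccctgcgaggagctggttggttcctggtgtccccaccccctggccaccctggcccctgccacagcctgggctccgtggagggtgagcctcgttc

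All 7 genes are protein coding. In GENCODE M21 on GRCm38, Runx3 lies on chr4:135120652-135177990 on the plus strand, Pparg on chr6:115360951-115490399 on the plus strand and Bhlhe41 on chr6:145858243-145865558 on the minus strand. Usf2 lies on chr7:30945248-30956803 on the minus strand and Tead1 on chr7:112679318-112906807 on the plus strand. Irf8 lies on chr8:120736358-120756694 and Xbp1 on chr11:5520659-5525893, both on the plus strand. The libraries count the 3′ ends of transcripts, so the spliced and unspliced forms of Xbp1 and the isoforms of Pparg are counted together.

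Libraries 1, 2, 3 and 7 held lung epithelium, with Sftpc, a surfactant gene of type 2 cells, between 2674 and 9212 CPM, the UMIs of a gene scaled to 1000000 UMIs in all. Libraries 4, 5 and 6 had Sftpc at or near 0, and hemoglobin genes made up between 35.3% and 40.6% of their UMIs, so the lung label is not matched by the markers there. They held exactly 3000, 5000 and 5000 barcodes, with at least 5735, 3439 and 3946 UMIs each. The lowest barcodes of the lung libraries held 304 to 501 UMIs. Shallow cells are thus absent from libraries 4, 5 and 6, which limits each comparison of them with the lung libraries. Kept barcodes per library ranged from 2992 to 7626, their UMIs from 29619014 to 76435633, and 153 barcode sequences occurred in several libraries. The cells fell into 55 clusters, which gave 25 classes, with 6 clusters of 968 cells left unnamed. Levels below are CPM of the summed UMIs of a class, with exact 95% Poisson intervals that cover counting error only. Levels are compared between classes and libraries and not between genes, since they are not scaled by transcript length.

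The 3 classes of most interest were set by their leading gene, so these genes describe the classes and are no result. The Arg1 or Mmp12 macrophages were 1527 cells of 2 clusters, with Arg1 (arginase) at 1070 CPM and Mmp12 (macrophage elastase) at 2477 CPM. The C1qa macrophages were 838 cells with C1qa, a complement gene, at 4662 CPM, against 480 CPM in the Arg1 or Mmp12 macrophages. The Ccr3 cells were 386 cells with Ccr3, the eotaxin receptor of eosinophils, at 331 CPM, or 522 CPM without the 6 cells of libraries 5 and 6. The eosinophil granule gene Epx had 2 UMIs there and Il5ra had 6, beside 98 UMIs of Prg2 and 164 of Alox15, so Ccr3 cells is used as a name by rule and not as a cell type. Alveolar macrophage-like cells, 3441 in number, served as a further class for comparison.

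Several libraries stood apart within these classes. The Arg1 or Mmp12 macrophages came to 668, 167, 27 and 665 cells in libraries 1, 2, 3 and 7. The 27 cells of library 3 had 0 Arg1 UMIs and Marco, an alveolar macrophage scavenger receptor, at 282 CPM, against 16.6 to 21.97 CPM in the same cluster of the other lung libraries, and 15 of the 27 were called doublets by Scrublet. The smaller of the 2 clusters held 133 cells, 124 of them from library 1, with Arg1 at 82.5 CPM, C1qa at 2.83 CPM and a best match to the alveolar macrophage marker list. The 6 Ccr3 cells of libraries 5 and 6 held 36.6% of all UMIs of that class, so the member levels in Ccr3 cells are given by library, in the cells with a Ccr3 UMI, or with and without them.

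**Figure D1:**
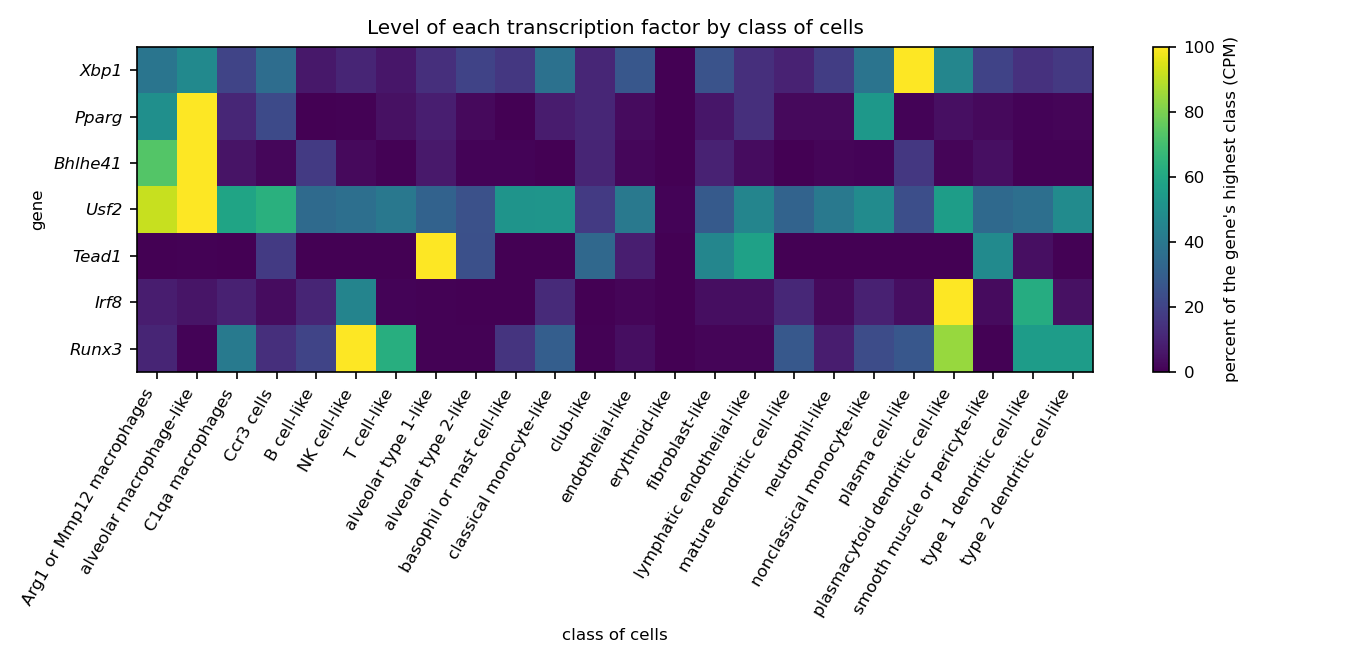
Level of the 7 genes (rows) in the 24 classes of at least 50 cells (columns), as a percent of the CPM in the gene's highest class. The column of Ccr3 cells includes the 6 cells of libraries 5 and 6, which held 36.6% of its UMIs and 13 of its 15 Tead1 UMIs. Pparg, Bhlhe41 and Usf2 were highest in alveolar macrophage-like cells, Xbp1 in plasma cell-like cells, Tead1 in alveolar type 1-like cells, Irf8 in plasmacytoid dendritic cell-like cells and Runx3 in NK cell-like cells.

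Pparg and Bhlhe41 were highest in alveolar macrophage-like cells, stood lower in the Arg1 or Mmp12 macrophages and were low in the C1qa macrophages. Of all Pparg UMIs in the kept cells, 64.4% lay in alveolar macrophage-like cells and 14.0% in the Arg1 or Mmp12 macrophages. For Bhlhe41 the shares were 62.8% and 19.96%. Pparg stood at 116 CPM (95% interval 113 to 119) in alveolar macrophage-like cells, 61.6 (57.1 to 66.3) in nonclassical monocyte-like cells, 57.8 (54.4 to 61.3) in the Arg1 or Mmp12 macrophages and 12.4 (10.2 to 14.8) in the C1qa macrophages. The intervals of the nonclassical monocyte-like cells and the Arg1 or Mmp12 macrophages overlapped. The nonclassical monocyte-like cells kept a Pparg level between 46.8 and 107 CPM in all 7 libraries, the hemoglobin-rich ones included.

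In the Arg1 or Mmp12 macrophages, Pparg was at 44.2, 68.6, 87.4 and 68.9 CPM in libraries 1, 2, 3 and 7. The C1qa macrophages had 10.2, 13.0, 12.3 and 12.0 CPM in the same order. The 2 classes did not overlap between any of the 4 libraries. The highest value, of library 3, rests on 27 cells without Arg1 UMIs, of which 15 were doublet calls. The log2 ratio was 2.23 (1.95 to 2.51), on 1094 and 117 UMIs, and ran from 2.12 to 2.83 by library. With classes gated on single cells in place of clusters it was 1.44, and with a mitochondrial limit of 5% it was 1.70.

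Bhlhe41 had the largest difference of the 7 genes. Its levels in the Arg1 or Mmp12 macrophages were 149, 179, 72.3 and 163 CPM in libraries 1, 2, 3 and 7. Those in the C1qa macrophages were 9.70, 14.6, 6.17 and 13.0 CPM. The lowest library of the first class thus lay above the highest of the second, and library 3, with its 27 cells, was the low one. The log2 ratio was 3.81 (3.53 to 4.11), on 2952 and 105 UMIs, and between 3.55 and 3.94 within libraries. With single-cell gates it was 1.65. Alveolar macrophage-like cells had 183, 243, 152 and 245 CPM, above the Arg1 or Mmp12 macrophages in each library.

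Outside macrophages the largest share of Bhlhe41 UMIs in a named class, 7.86%, lay in B cell-like cells, at 36.2 CPM (34.1 to 38.3). Plasma cell-like cells had 34.3 CPM (27.0 to 43.0), an overlapping interval, club-like cells had 22.2 CPM, and the unnamed cells had 56.3 CPM. The level in B cell-like cells ranged widely between libraries. It stood at 79.5, 50.9, 37.1 and 99.1 CPM in libraries 1, 2, 3 and 7 and at 68.3, 31.7 and 10.97 CPM in libraries 4, 5 and 6. The libraries filled different clusters of this class, with 142 of the 251 cells of library 7 in a cluster led by Ms4a1, Zcwpw1 and Zbtb32 that held 0 cells of library 6, and 1605 of the 1910 cells of library 6 in a cluster led by Ighd and Fcer2a. The part of these clusters in the range was not tested. Fibroblast-like cells had 20.1 CPM, and here library 3 was the high one, with 33.4 CPM against 1.61 to 16.5 in the other lung libraries.

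Since the classes differ in depth, cells were also thinned to 1500 UMIs each, which left out 194 Arg1 or Mmp12 macrophages, 50 C1qa macrophages and 575 alveolar macrophage-like cells. A Bhlhe41 UMI was then found in 16.8% (exact binomial interval 14.8 to 18.9) of Arg1 or Mmp12 macrophages, 2.28% (1.36 to 3.59) of C1qa macrophages and 24.1% (22.6 to 25.7) of alveolar macrophage-like cells. Without thinning, the shares were 55.7%, 9.07% and 68.2% at medians of 10680, 10409 and 13265 UMIs. T cell-like cells, at 1.52 CPM of Bhlhe41, had 0.265% (0.0860 to 0.617) thinned and 0.883% unthinned at a median of 6202 UMIs. Thinned shares for Pparg were 7.73% (6.35 to 9.29), 2.03% (1.16 to 3.28) and 14.4% (13.2 to 15.8) in the same order, with 0.794% in T cell-like cells. The order of these shares was that of the CPM. In T cell-like cells, Pparg ran from 2.53 to 15.6 CPM across the lung libraries.

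**Figure D2:**
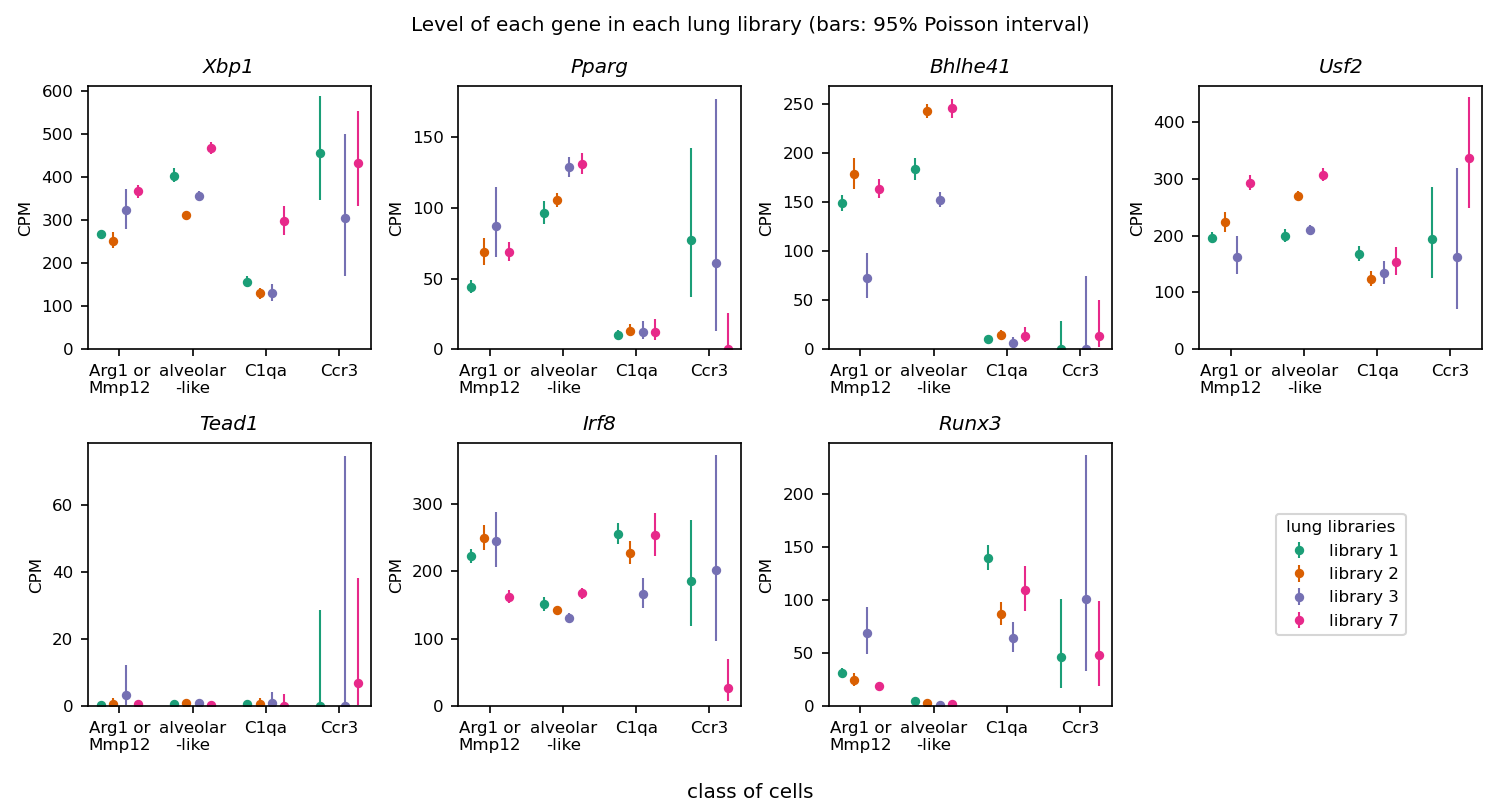
CPM of each gene (vertical axis, starting at 0) in libraries 1, 2, 3 and 7 (colors) for Arg1 or Mmp12 macrophages, alveolar macrophage-like cells, C1qa macrophages and Ccr3 cells, with 95% Poisson intervals. Library 2 has no point among Ccr3 cells, where it held 13 cells, and the Bhlhe41 points of C1qa macrophages lie between 6.17 and 14.6 CPM, below all those of the first 2 classes.

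Most genes of lipid handling that are known PPARG targets were at least 2-fold higher in the Arg1 or Mmp12 than in the C1qa macrophages. With genes of a mean of at least 10 CPM over the 2 classes, 7818 genes were compared, of which 6.52% were at least 2-fold higher in the Arg1 or Mmp12 than in the C1qa macrophages and 7.90% at least 2-fold lower, with a median log2 ratio of 0.01. Among the members, 6 passed this limit, with Pparg and Bhlhe41 past 2-fold higher, Runx3 past 2-fold lower, and Tead1 too low to be compared. Of 9 target genes, 8 passed, and 7 of the 8 were at least 2-fold higher, with a median log2 ratio of 2.33. Only the members were kept out of the clustering. Genes of this and the later lists could thus help to form the classes, and their counts are descriptions. Fabp4, a fatty acid carrier, stood at 310 against 16.9 CPM (log2 ratio 4.197), and was higher by 3.66 to 4.11 in each library. Abcg1, a cholesterol exporter, stood at 518 against 77.9 CPM (log2 ratio 2.73). Plin2, a lipid droplet coat, stood at 799 against 245 CPM (1.71), and Lpl, lipoprotein lipase, at 1574 against 540 CPM (1.54). Abcg1 and Lpl were also leading genes of the largest alveolar macrophage-like cluster, so they were not particular to the Arg1 or Mmp12 macrophages. Cd36, a fatty acid receptor, had log2 ratios of 2.07, 0.60, -0.11 and 2.61 in libraries 1, 2, 3 and 7, so it was not higher in library 3. Acadl, a mitochondrial dehydrogenase, stood at 84.1 against 57.8 CPM (0.54) and did not reach 2-fold. Rxra, the DNA-binding partner of PPARG, was at 67.0 against 31.5 CPM (1.09).

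Xbp1 was highest in plasma cell-like cells, at 777 CPM (740 to 815), where lung libraries 1 and 2 had 1020 and 923 CPM and hemoglobin-rich library 6 had 53.9. It followed in alveolar macrophage-like cells at 369 CPM (364 to 375) and plasmacytoid dendritic cell-like cells at 358 (314 to 406), whose intervals overlapped. The lowest classes were T cell-like cells at 45.6 CPM and erythroid-like cells at 2.93 CPM.

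In the Arg1 or Mmp12 macrophages Xbp1 stood at 267, 253, 325 and 367 CPM in libraries 1, 2, 3 and 7. The C1qa macrophages had 157, 130, 130 and 298 CPM. Within every lung library the first class was the higher, although the C1qa macrophages of library 7 lay above the Arg1 or Mmp12 macrophages of libraries 1 and 2. The log2 ratio was 0.92 (0.83 to 0.9998), from 0.30 in library 7 to 1.32 in library 3, and did not reach 2-fold. It passed 2-fold under 5 other settings, up to 1.53 with the study's limits on UMIs and genes per cell, and without library 1, at 1.04.

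Of 10 XBP1 targets of the secretory pathway, all were compared, 1 was at least 2-fold higher in the Arg1 or Mmp12 macrophages and 1 at least 2-fold lower, near the 6.52% and 7.90% of all genes, with a median log2 ratio of 0.72. Pdia4, a disulfide isomerase, stood at 169 against 79.6 CPM (1.08). Pdia6 was at 507 against 264 CPM (0.94) and Hspa5, the BiP chaperone, at 991 against 581 CPM (0.77), although Hspa5 was lower by 0.25 on the log2 scale in library 3. Herpud1, a part of the degradation machinery of the endoplasmic reticulum, was the lower one, at 95.6 against 225 CPM (-1.24). Ern1, which splices Xbp1 mRNA, was at 19.3 against 16.1 CPM (0.27).

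Usf2 was found in all classes. It ran from 43.1 CPM in club-like cells to 254 (249.3 to 258.8) in alveolar macrophage-like cells, with erythroid-like cells apart at 2.07 CPM. The Arg1 or Mmp12 macrophages followed at 233 CPM (226 to 240), and the C1qa macrophages stood at 148 (140 to 156). By library the first had 196, 224, 163 and 293 CPM and the second 168, 124, 133 and 154 CPM in libraries 1, 2, 3 and 7. Library 3 of the first class lay below library 1 of the second, so the classes overlapped between libraries. The log2 ratio was 0.65 (0.57 to 0.74), and within libraries 0.22, 0.85, 0.29 and 0.93. In library 3 its interval, from -0.08 to 0.66, included 0. Without library 1 the ratio was 1.004, and without library 7 it was 0.45.

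Lysosome genes mostly had higher levels in the Arg1 or Mmp12 than in the C1qa macrophages. Of 19, all were compared, 10 were at least 2-fold higher and 0 at least 2-fold lower, with a median log2 ratio of 1.13, beside 6.52% and 7.90% of all genes. The list holds Ctsl, Ctsk, Dnase2a and Atp6v0a1, which the paper had named from these data for a cell state of its emphysema model. Ctsl was also a leading gene of the larger Arg1 or Mmp12 cluster. The count is therefore a description and not an independent test. Ctsk, cathepsin K, stood at 767 against 5.60 CPM (7.10) and Atp6v0d2, a subunit of the proton pump, at 746 against 11.2 CPM (6.06). Atp6v0d2 was also a leading gene of the largest alveolar macrophage-like cluster, so it was not particular to the Arg1 or Mmp12 macrophages. Over the classes, Ctsk was much like Bhlhe41 (Pearson's r of 0.82), which was highest in alveolar macrophage-like cells. Its ratio is therefore not read as particular to the Arg1 or Mmp12 macrophages either. Ctsl, cathepsin L, stood at 1740 against 175 CPM (3.32), with log2 ratios of 2.81, 2.21, 0.52 and 3.65 in libraries 1, 2, 3 and 7. Ctsd, cathepsin D, was at 6889 against 835 CPM (3.04), between 1.76 and 3.27 by library. Of the related regulators, Tfec was at 112 against 20.9 CPM (2.42), Mitf at 69.7 against 47.1 (0.57), Tfeb at 43.8 against 37.4 (0.23), Tfe3 at 64.7 against 76.8 (-0.25) and Usf1 at 38.7 against 35.7 (0.12).

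Promoter windows were held for 13 of the lysosome genes, and CACGTG occurred in 5 of these 13 windows, beside 7.15% of all windows. An E-box of each gene, of up to 4 in a window, is shown with 10 bases on each side, to let it be compared with that of Bhlhe41. The letters do not tell USF2 from BHLHE41, TFEB or MITF.
Ctsd, chr7:142387910-142387935, minus strand: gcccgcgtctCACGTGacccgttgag
Ctsl, chr13:64370741-64370766, minus strand: cgttagaagcCACGTGctgatctaaa
Gla, chrX:134601217-134601242, minus strand: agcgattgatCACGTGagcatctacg
Lamp1, chr8:13159090-13159115, plus strand: ggcaagatatCACGTGgtccagcgcc
Mcoln1, chr8:3500438-3500463, plus strand: tcgcgcttgtCACGTGttcagttcag

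Irf8 was highest in plasmacytoid dendritic cell-like cells at 2548 CPM (2427 to 2673), type 1 dendritic cell-like cells at 1580 (1552 to 1607) and NK cell-like cells at 1145 (1106 to 1185), whose intervals did not overlap over all libraries. The type 1 dendritic cell-like cells had 1819, 1418, 1257 and 1936 CPM in libraries 1, 2, 3 and 7. NK cell-like cells had 2039, 1414, 1604 and 2147 CPM in these libraries and 705 and 543 CPM in libraries 5 and 6, where each value lay below all 4 lung libraries. The order of these 2 classes therefore turned within the lung, where NK cell-like cells stood above the type 1 dendritic cell-like cells in libraries 1, 3 and 7 and at almost the same level in library 2.

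Between the macrophage classes Irf8 differed by less than 2-fold. The Arg1 or Mmp12 macrophages had 223, 250, 245 and 163 CPM in libraries 1, 2, 3 and 7, and the C1qa macrophages 256, 227, 167 and 254 CPM. The log2 ratio was -0.18 (-0.25 to -0.10), but within libraries it was -0.20, 0.14, 0.56 and -0.64, so the direction was not shared. Without library 7 the ratio was -0.0096, and with a mitochondrial limit of 5% it was 0.044. With the members allowed in the clustering it was -0.73, the lowest of the settings tried. Alveolar macrophage-like cells had 151, 143, 131 and 168 CPM, lower than the C1qa macrophages in each library, with a log2 ratio of -0.68 (-0.75 to -0.61).

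Genes of MHC class II antigen presentation, used by dendritic cells and macrophages, were lower in the Arg1 or Mmp12 macrophages. All 7 were compared and all 7 were at least 2-fold lower, beside 7.90% of all genes, with a median log2 ratio of -2.03. The paper had linked MHC class II to a regulon module in these data, and these genes were not kept out of the clustering. The count is therefore a description and not an independent test. Cd74, the invariant chain, stood at 4703 against 21155 CPM (-2.17), with log2 ratios of -1.63, -2.77, -2.03 and -3.08 in libraries 1, 2, 3 and 7. Ciita, the transactivator of these genes, stood at 32.8 against 154 CPM (-2.23). In alveolar macrophage-like cells Cd74 stood at 753 CPM and Ciita at 6.03 CPM. Spi1, which encodes PU.1, was at 292 against 383 CPM (-0.39), Irf5 at 89.3 against 153 CPM (-0.78) and Irf4 at 31.4 against 36.8 CPM (-0.23).

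Across the macrophage classes, Runx3 had the order opposite to Pparg and Bhlhe41. NK cell-like cells had 267 CPM (248 to 287), plasmacytoid dendritic cell-like cells 226 (191 to 265) and T cell-like cells 167 (161 to 174), and type 2 and type 1 dendritic cell-like cells both had 148 CPM. The C1qa macrophages followed at 109 CPM (102 to 116), the Arg1 or Mmp12 macrophages had 27.2 (24.9 to 29.6) and alveolar macrophage-like cells 2.32 (1.89 to 2.81).

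By library, Runx3 in the C1qa macrophages stood at 140, 86.6, 64.0 and 109 CPM in libraries 1, 2, 3 and 7. The Arg1 or Mmp12 macrophages had 31.6, 24.5, 68.9 and 18.4 CPM. Libraries 1, 2 and 7 did not overlap between the classes, with log2 ratios of -2.14, -1.82 and -2.57. Library 3 was different, at 0.11 (-0.47 to 0.66) on its 27 cells without Arg1 UMIs. The log2 ratio over all libraries was -2.004 (-2.16 to -1.85), on 514 and 1031 UMIs, and ran from -3.56, with the members allowed in the clustering, to -1.09 with single-cell gates. Within the Arg1 or Mmp12 macrophages the gene was uneven, since the 133 cells of the smaller cluster, most of them from library 1, had 2 Runx3 UMIs (1.13 CPM) and the 1394 cells of the larger had 512 (29.8 CPM).

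Thinned to 1500 UMIs, 3.53% (2.60 to 4.66) of Arg1 or Mmp12 macrophages, 14.7% (12.3 to 17.4) of C1qa macrophages and 0.314% (0.144 to 0.595) of alveolar macrophage-like cells had a Runx3 UMI, and unthinned 18.2%, 50.2% and 2.21%. Endothelial-like cells, not known for Runx3, had 0.555% thinned and 3.09% unthinned at a median of 5445 UMIs, so the alveolar macrophage-like share was no higher than theirs. By CPM, endothelial-like cells were the highest structural class, at 9.66. The others ran from 1.15 in club-like to 4.15 in fibroblast-like cells, around the alveolar macrophage-like level of 2.32. The endothelial-like class included a cluster of 140 cells with C1qa at 625 CPM. The part of that cluster in the endothelial-like Runx3 level was not tested. The partner gene Cbfb was at 72.5 against 81.6 CPM (-0.17) in the Arg1 or Mmp12 and C1qa macrophages. Of the relatives, Runx1 was at 232 against 178 CPM (0.38) and Runx2 at 32.6 against 9.72 CPM (1.75). None of the 7 lymphocyte genes linked to RUNX3 reached 10 CPM in these macrophages.

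Tead1 was mainly a gene of structural cells here. Alveolar type 1-like cells, of which there were 50, had 165 CPM (135 to 200), lymphatic endothelial-like cells 94.6 (79.6 to 112), smooth muscle or pericyte-like cells 79.0 (71.7 to 86.9) and fibroblast-like cells 76.0 (72.1 to 80.1), where the last 3 overlapped with their neighbors in this order. Fibroblast-like cells had 105, 75.0, 68.3 and 109 CPM in libraries 1, 2, 3 and 7. Type 1 dendritic cell-like cells had 6.50 CPM (4.85 to 8.52), and from 1.80 to 15.2 CPM by lung library. In the macrophages Tead1 was near 0. There were 9 UMIs among 1527 Arg1 or Mmp12 macrophages (0.475 CPM, 0.217 to 0.903), 5 among 838 C1qa macrophages (0.528 CPM, 0.171 to 1.23) and 30 among 3441 alveolar macrophage-like cells (0.688 CPM, 0.464 to 0.982). The log2 ratio of the first 2 was -0.15 with an interval from -1.88 to 1.77, so no difference was detectable at this depth. Of its partners, Yap1 had 0.211 and 0.739 CPM and Wwtr1 5.76 and 1.90 CPM in these 2 classes, and of 7 TEAD targets, 1, Lats2, passed the limit, at 24.6 against 30.3 CPM (-0.30).

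**Figure D3:**
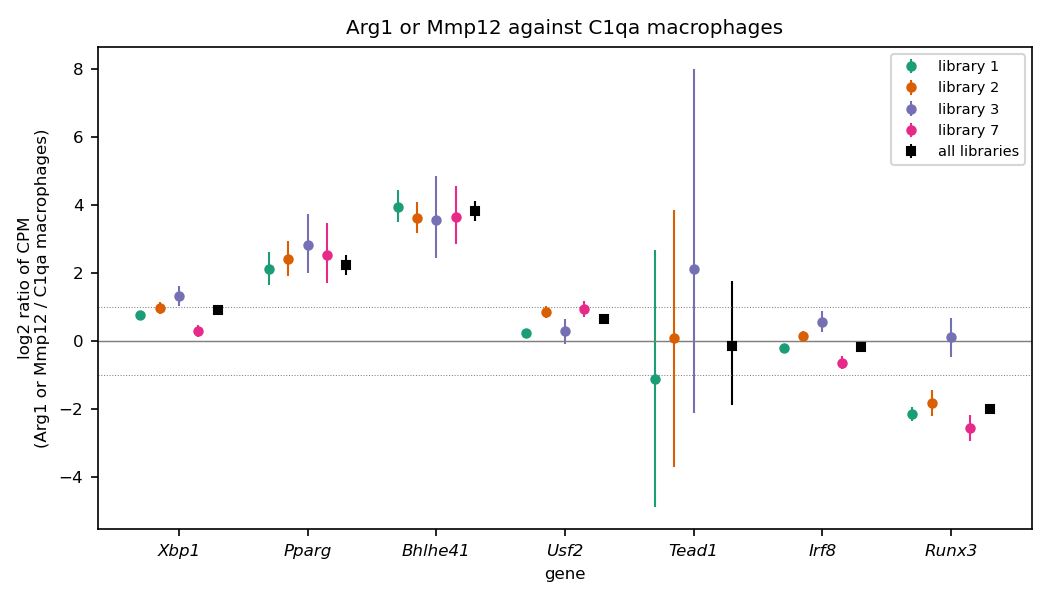
Log2 ratio of CPM of the Arg1 or Mmp12 over the C1qa macrophages for each gene, by lung library (circles) and over all libraries (squares), with exact 95% intervals for counting error, where dotted lines mark 2-fold. Pparg and Bhlhe41 lay above 2-fold in all 4 libraries, Runx3 below in 3 of 4, and Irf8 on both sides of 0, while Tead1 in library 7 has no point because the C1qa macrophages there had 0 UMIs.

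Against alveolar macrophage-like cells, the Arg1 or Mmp12 macrophages had more Runx3 and less Pparg. Of 7731 genes compared, 3.53% were at least 2-fold higher and 4.35% at least 2-fold lower, with a median log2 ratio of -0.17. Runx3 passed 2-fold higher and Pparg 2-fold lower. For Runx3 the alveolar macrophage-like level, 2.32 CPM, lay among those of the structural classes, from 1.15 CPM in club-like to 4.15 CPM in fibroblast-like cells, and below endothelial-like cells at 9.66 CPM. It was therefore read as background, and no fold is given. The alveolar macrophage-like cells had 4.27, 2.74, 1.03 and 1.79 CPM in libraries 1, 2, 3 and 7, each below the Arg1 or Mmp12 macrophages, whose library 3 rests on 27 cells with 15 doublet calls. Pparg had a log2 ratio of -1.002 (-1.10 to -0.91), with -1.13, -0.62, -0.56 and -0.93 in libraries 1, 2, 3 and 7. By library, Pparg thus passed 2-fold in library 1 only. Bhlhe41 had -0.45 (-0.51 to -0.39), Xbp1 -0.29 (-0.34 to -0.25) and Usf2 -0.13 (-0.18 to -0.07). Irf8 had 0.50 (0.44 to 0.56), and in library 7 -0.04 (-0.16 to 0.07). Between alveolar macrophage-like cells and C1qa macrophages, which share cells with the comparisons above, 11% of 8028 genes were at least 2-fold higher and 8.66% at least 2-fold lower. There Bhlhe41 had a log2 ratio of 4.26, Pparg 3.23, Xbp1 1.21 and Usf2 0.78, and Runx3 was at the background level just given against 109 CPM.

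The alveolar macrophage-like cells themselves came in 4 clusters. The largest, of 2518 cells, had Bhlhe41 at 222 CPM and Xbp1 at 378 CPM. A cluster of 152 cells led by the division genes Top2a and Mki67 had 141 CPM of Bhlhe41 and 266 of Xbp1, while Pparg, at 117 and 121 CPM, and Usf2, at 255 and 255 CPM, were alike in both. A shallow cluster of 748 cells, at a median of 895 UMIs, had Bhlhe41 at 131 CPM and Pparg at 50.4 CPM. It had Arg1 plus Mmp12 at 945 CPM and C1qa at 50.4 CPM, against 222 and 2.35 CPM in the largest cluster. Tspan7, also a leading gene of the largest endothelial-like cluster, was among its leading genes. The part of RNA from other cells in its levels was not tested.

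The median Ccr3 cell held 652.5 UMIs, and 107 of the 386 had a Ccr3 UMI, 92 of them in library 7 and 15 in library 1. Those of libraries 2 and 3, 13 and 39 cells, had 0, and also 0 UMIs of Alox15, Prg2, Epx and Il5ra. The values of library 3 below are therefore of cells placed in the class by clustering alone. Xbp1 and Usf2 were the members found most often. Xbp1 stood at 456 (347 to 589), 304 (170 to 501) and 433 (333 to 554) CPM in libraries 1, 3 and 7, on 59, 15 and 63 UMIs, and these intervals overlapped. Alveolar macrophage-like cells of libraries 1 and 7 had 404 and 467 CPM, within these intervals. Over the whole class, Xbp1 was at 277 CPM and ran from 136 CPM, with a mitochondrial limit of 5%, to 517 CPM in the cells with a Ccr3 UMI. Usf2 stood at 193 (125 to 285), 162 (70.0 to 319) and 337 (249.1 to 445.1) CPM. In library 7, which held most of the Ccr3 UMIs, Usf2 was higher in the Ccr3 cells than in the C1qa macrophages by 1.13 on the log2 scale (0.64 to 1.61), and than in neutrophil-like cells by 1.08 (0.61 to 1.53). The Arg1 or Mmp12 macrophages of library 7 had 293 CPM, and alveolar macrophage-like cells reached 307 CPM in a lung library. Both values lay within the interval of the Ccr3 cells of library 7. In libraries 1 and 3 the log2 ratios to the C1qa macrophages were 0.20 (-0.44 to 0.77) and 0.28 (-0.95 to 1.29), whose intervals included 0.

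Pparg had no UMI among the 145549 of the Ccr3 cells of library 7, an interval of up to 25.3 CPM, and 10 UMIs in library 1 (77.3 CPM, 37.1 to 142). Bhlhe41 had 2 UMIs in the whole class, both in library 7. Irf8 had 4 UMIs in library 7 (27.5 CPM, 7.49 to 70.4) and 24 in library 1 (186 CPM, 119 to 276), and these intervals did not overlap. Runx3 had 6, 5 and 7 UMIs in libraries 1, 3 and 7, at 46.4, 101 and 48.1 CPM, with intervals that overlapped. The cells of library 3 had no UMI of Ccr3, Alox15, Prg2, Epx or Il5ra.

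In library 1, 15 of 111 cells had a Ccr3 UMI, and in library 7, 92 of 217. Among the 107 cells with a Ccr3 UMI, Xbp1 was at 517 CPM, Usf2 at 406, Irf8 and Runx3 each at 36.9, Pparg and Bhlhe41 each at 12.3 CPM on 1 UMI, and Tead1 at 0. Tead1 had 15 UMIs in the whole class, of which 13 lay in the 6 cells of libraries 5 and 6. Without those 6 cells Tead1 was at 5.90 CPM against 28.1 CPM with them, Xbp1 at 425 against 277 CPM, and Usf2 at 248 against 161 CPM.

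The genes whose level over the 24 classes was most like that of a member were found among 8032 genes, as Pearson's r of log2(CPM + 10), given as a description over classes that share libraries and depth. For Xbp1 they were Derl1 (0.92), H13 (0.88) and Ssr3 (0.88). For Pparg they were Noct (0.87), Lilra5 (0.86) and Nln (0.86), and for Bhlhe41 Mcoln3 (0.88), B3gnt7 (0.86) and Krt79 (0.85). Usf2 had BC005537 (0.95), Tmed5 (0.93) and Cdk9 (0.93), and Tead1 had Hspb1 (0.93), Cttn (0.93) and Parva (0.92). Irf8 had Parp8, Rnf157 and Coro7 (0.79, 0.78 and 0.78), and Runx3 had Itgb7, Nfatc2 and Cd48 (0.88, 0.88 and 0.87). Among the members, Irf8 with Runx3 (0.68), Xbp1 with Usf2 (0.67) and Pparg with Bhlhe41 (0.60) were the most alike, and Tead1 with Runx3 (-0.67) the least.

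**Figure D4:**
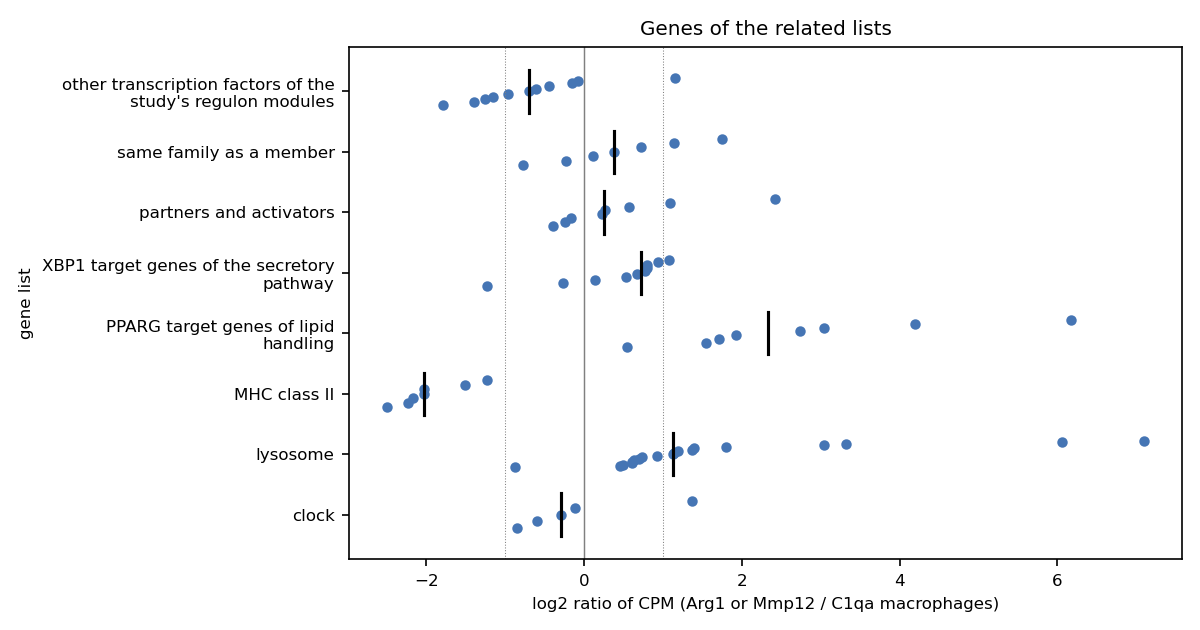
Log2 ratio of CPM of the Arg1 or Mmp12 over the C1qa macrophages for each gene (circles) of the related lists that passed the mean of 10 CPM, with the median of each list as a black bar and dotted lines at 2-fold. MHC class II genes lie between -2.50 and -1.24, and the lipid handling and lysosome lists have medians of 2.33 and 1.13.

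Of 13 other transcription factors of the study's regulon modules, 11 were compared, 1 was at least 2-fold higher in the Arg1 or Mmp12 macrophages and 4 at least 2-fold lower, beside 6.52% and 7.90% of all genes, with a median log2 ratio of -0.70. Cebpb, a factor of myeloid activation, was the higher one, at 1603 against 723 CPM (1.15), and between 1.18 and 1.31 in all 4 libraries. Among the lower ones were Jun, at 242 against 634 CPM (-1.39), Ets1, at 6.18 against 21.3 CPM (-1.79), and Nfkb2, at 19.4 against 43.3 CPM (-1.16). Of 11 relatives of the members, 7 were compared, 2 were at least 2-fold higher and 0 lower, with a median of 0.38, and they were Runx2 and Bhlhe40, which stood at 414 against 188 CPM (1.14). Of 10 partners and activators, 8 were compared and 2, Rxra and Tfec, were at least 2-fold higher, with a median of 0.25. Of 8 clock genes, 5 were compared and 1, Cry1, was at least 2-fold higher, at 16.96 against 6.55 CPM (1.37), with a median of -0.30. These counts of 1 or 2 genes in lists of 5 to 8 stand beside the same shares of all genes, and nothing particular to the lists is read from them.

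In single Arg1 or Mmp12 macrophages thinned to 1500 UMIs, the interval of each pair of members included independent detection within each library. Pairs with few expected cells could not show fewer joint cells than expected, such as those with Tead1 (at most 0.377 expected) or Pparg with Runx3 (3.53 expected). Pparg and Bhlhe41 occurred together in 21 of 1333 cells against 17.3 expected, a ratio of 1.22 (0.75 to 1.86). Xbp1 and Usf2 did so in 190 cells against 184 expected, a ratio of 1.03 (0.89 to 1.19). In alveolar macrophage-like cells, Pparg and Irf8 had a ratio of 1.26 (1.03 to 1.52), on 108 cells against 86.0 expected. In B cell-like cells, Bhlhe41 and Irf8 had a ratio of 0.69 (0.47 to 0.96), on 34 cells against 49.6 expected. These 2 were the pairs, out of 105 in 5 classes, whose interval left out 1, and no correction for that number was made. Some of the 105, all with Tead1, had no expected cell and so no interval.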

How the data were processed

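Whole-lung cells were profiled by droplet 3′ single-cell RNA sequencing, whose kit is given as another version in the labels than in the study's methods. The authors deposited UMI counts per gene and barcode as 1 matrix of 7 libraries, for which the file headers name Cell Ranger 3.1.0 and the submitters' processing notes name STAR and the mm10 build. Per the methods, reads were down-sampled across libraries as required, which evens depth and thins rare transcripts. No file tying the libraries to the 13 labelled samples was used here, so no groups were compared. The paper gives 1 mouse per group for its single-cell part. How the 7 libraries relate to those mice is not stated in the sources used. The members and all lists were chosen with earlier results of these data known.

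Barcodes with at most 10% mitochondrial UMIs were kept, scaled to 10000, and log-transformed. The 2000 most variable genes other than the members gave 30 components, which were aligned by mutual nearest neighbors and clustered (20 neighbors, Leiden resolution 0.8, leidenalg 0.10.2). Clusters were named from 29 marker lists, and a cluster whose leading genes tied between classes stayed unnamed, a rule added after the clusters were seen. The 3 main classes were clusters with at least 0.5 of the highest cluster's CPM of Ccr3, C1qa or, among macrophage-like, monocyte-like or unnamed clusters, Arg1 plus Mmp12. Named genes were the members, the 3 genes most like each over the classes of at least 50 cells (among genes of at least 50 CPM in 1 class), the list genes of highest level or ratio and class-defining genes, and further list, marker and cluster genes were named after their values were seen. Values per library are given for at least 20 cells, and a gene counts as higher or lower at 2-fold. Doublets were called with the Scrublet function of scanpy 1.11.5 in each library, which marked 744 of 33618 cells, but 0, 15 and 1 in libraries 4, 5 and 6, and were kept. Of the gene identifiers, 30934 of 31053 were found in GENCODE M21. Intervals are exact at 95% and cover counting error only. The steps were tested on simulated data, and the alternatives are given in the closing section. Some genes of the lists are counted but not reported here by name.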

Additional observations from a re-analysis of the deposited data

How the results depend on the processing

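No paired analysis was possible because no library could be tied to a group or replicate number. The log2 ratios of the Arg1 or Mmp12 over the C1qa macrophages were recomputed under other settings, and the cause of the shifts was not tested. With the study's limits on UMIs and genes they were 1.53 for Xbp1, 0.97 for Usf2, 1.96 for Tead1, -0.62 for Irf8 and -3.24 for Runx3. With a mitochondrial limit of 5% they were 1.10 for Xbp1, 1.70 for Pparg, 3.18 for Bhlhe41, 0.90 for Usf2, 0.044 for Irf8, which turned its direction, and -1.49 for Runx3. Without alignment of the libraries Xbp1 had 0.83 and Irf8 -0.29. At resolution 1.5 Xbp1 had 1.17, Usf2 0.91, Irf8 -0.69 and Runx3 -3.27. With the members allowed among the variable genes Xbp1 had 1.43, Usf2 1.01, Irf8 -0.73 and Runx3 -3.56. With single-cell gates Pparg had 1.44, Bhlhe41 1.65, Usf2 0.50, Tead1 -1.95, Irf8 -0.68 and Runx3 -1.09. With each cell weighted alike Xbp1 had 1.16, Bhlhe41 3.19, Usf2 0.79, Irf8 -0.27 and Runx3 -2.27, and with each lung library weighted alike Xbp1 had 0.76, Irf8 -0.035 and Runx3 -1.48. Leaving out 1 library at a time gave 0.84 to 1.04 for Xbp1, 2.07 to 2.32 for Pparg, 3.74 to 4.01 for Bhlhe41, 0.45 to 1.004 for Usf2, -0.36 to 0.32 for Tead1, -0.25 to -0.0096 for Irf8 and -2.17 to -1.78 for Runx3. Without a minimum level, 14.4% of genes were at least 2-fold higher and 22.8% lower in the Arg1 or Mmp12 than in the C1qa macrophages, 12.4% and 22.5% against alveolar macrophage-like cells, and 22.2% and 20.5% for the latter against C1qa macrophages. Leaving out Scrublet calls, and leaving out the 133-cell cluster, the latter chosen after seeing the data like the 2 other selections of Ccr3 cells, kept the direction of each ratio. In Ccr3 cells the levels moved more: over all settings Xbp1 ran from 136 CPM (mitochondrial limit of 5%) to 517 (cells with a Ccr3 UMI), Usf2 from 95.1 (without library 7) to 406 (cells with a Ccr3 UMI), Irf8 from 17.3 (no alignment) to 189 (lung libraries weighted alike), Pparg from 0 to 51.5, Bhlhe41 from 0 to 51.3 (single-cell gates), Runx3 from 27.2 to 71.9 and Tead1 from 0 to 37.0. Weighting the lung libraries alike gives equal weight to the Ccr3 cells of libraries 2 and 3, which had no UMI of Ccr3, Alox15, Prg2, Epx or Il5ra. Few UMIs limit Tead1 in macrophages and all members in Ccr3 cells.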
